A study of Mus musculus with 22 samples.

Results

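The genes described here encode the proteins of the cytoplasmic ribosome, together with the few paralogs that carry the same names. They were chosen by symbol: a protein-coding gene was a member if its symbol began with Rpl or Rps followed by a digit, or was Rpsa, Rplp0, Rplp1 or Rplp2, and if it was present in both bulk count tables and in the single-cell matrix. The 10 kinases named Rps6k and 293 pseudogenes that match the pattern were left out. This gave 85 genes, 51 of the large and 34 of the small subunit, of 53801 identifiers in the bulk tables and 19324 genes in the cell matrix. Of them, 77 encode canonical ribosomal proteins and 7 encode paralogs (Rpl22l1, Rpl36al, Rpl39l, Rpl3l, Rpl7l1, Rps27l and Rps27rt). The remaining 1, Rps19bp1, encodes a nucleolar binding partner of RPS19 and not a ribosomal protein, and stays in the counts because the rule takes it. Rpl10l met the rule in the bulk tables but was absent from the cell matrix, so it was not analysed here.

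Every cytoplasmic ribosome holds a single copy of nearly all of these proteins, so their genes are transcribed in all cells and their mRNAs are among the most abundant of the transcriptome. Their mRNAs begin with a run of pyrimidines, the 5′ terminal oligopyrimidine (TOP) tract, which ties their translation to the mTORC1 kinase. Mammalian genomes hold many processed pseudogenes of them, which are reverse-transcribed copies of the mature mRNAs that can match the parent gene almost base for base. Rod photoreceptors renew their outer segments throughout life and need steady protein synthesis, and the retinal pigment epithelium (RPE) takes up what they shed.

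The study sequenced the retina and the RPE of WT mice and of mice homozygous for a germline insertion in the adiponectin receptor 1 gene (AdipoR1-/-, KO), both on the C57BL/6J strain and of both sexes. For bulk RNA-Seq at P30, each tissue and genotype had 4 libraries from different mice, and for droplet single-cell RNA-Seq 4 retinae of each genotype were dissociated into a single library at each of P19, P25 and P30. No treatment is named for any group, the allele is carried by every cell and not by a chosen cell type, and the RPE was shaken off the posterior eyecup and not sorted. The P30 cell libraries were sequenced in another batch and on another instrument than those at P19 and P25, so that age and batch cannot be told apart in the cells.

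Adipor1 itself read 589 to 608 CPM (counts scaled to the total of the library) in WT retina and 136 to 142 in KO retina, and 361.5 to 478.3 CPM in WT RPE and 139.2 to 152.7 in KO RPE. The KO libraries therefore keep some reads on the gene, and no library went against its label. Total counts were 22734843 to 35118164 per retina library and 20133143 to 38409496 per RPE library. Rod marker genes took 6.43% to 7.03% of counts in WT retina and 3.65% to 4.13% in KO retina, and in the RPE 0.13% to 1.86% in WT and 0.0895% to 0.633% in KO libraries. WT RPE replicates 2 and 3 held the most rod RNA. RPE marker genes took 3.45% to 4.90% of counts in the RPE libraries and at most 0.0176% in the retina. In bulk tissue, fewer cells of a type and less RNA per cell cannot be told apart.

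In bulk retina the ribosomal protein genes took a small and steady share of the counts. The 85 genes held 0.392% to 0.420% of all counts in WT retina and 0.419% to 0.436% in KO retina, and 0.472% to 0.620% in WT RPE and 0.570% to 0.628% in KO RPE. The lowest KO retina library lay just under the highest WT one, and the RPE groups overlapped. Per kilobase of the median length of a gene's annotated transcripts, the highest levels in WT retina were those of Rps15 of the small subunit head (346 ± 26.4 CPM per kb, SD, n = 4), of the stalk protein gene Rplp1 (300.3 ± 5.01) and of Rps3, whose product lies at the mRNA entry channel (266 ± 9.52). The order at the top depended on the length taken: per kilobase of all annotated exons of a gene, a choice added after the data were seen, Rplp1 (300.3 CPM per kb) stood above Rps15 (294) and Rpl4 (187). By transcript length the lowest were Rpl39l (0 in all 4 libraries), Rpl3l, the striated muscle paralog of Rpl3 (0.161 ± 0.0914), and Rpl36al (0.532 ± 0.22).

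In the bulk tables the reads of a gene and of its pseudogene copies were counted apart. A search of annotated pseudogene transcripts against the members' mRNAs (BLAST, at least 90% identity over at least 150 bases) placed 1070 pseudogenes with 78 of the members. These copies held 0.734% to 0.833% of the counts in the retina libraries, 1.87 to 1.93 times as many as the members themselves. For the median canonical gene, 23.3% of the counts of gene and copies together stood on the gene in the retina, with 18 genes under 10% and 9 over 90%. The mRNA of Rpl24, a protein of the large subunit, is shown beside its most-read copy, because the deposited counts put nearly all reads on the copy. Over the 16 libraries Rpl24 had 1246 counts and its processed pseudogene Gm9385 (GRCm38, chr9:116040593-116041064, minus strand) had 43157. The first 60 bases of the coding sequence, taken from GENCODE M21 transcripts, held no mismatch and are printed in lower case throughout, since no base differs:
Rpl24: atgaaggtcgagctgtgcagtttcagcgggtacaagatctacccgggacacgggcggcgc
Gm9385: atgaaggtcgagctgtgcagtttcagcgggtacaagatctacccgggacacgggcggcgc
Over the whole alignment the identity was 99.788% over 472 bases. The deposited tables do not show how a read that matches both places was assigned.

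Among the 77 canonical genes the level per kilobase in WT retina spanned 21.2-fold from the 10th to the 90th percentile when the gene stood alone, and 3.02-fold when the copies were added. With the length of all exons these spans were 18.4-fold and 5.92-fold. The cell level, CPM over all cells of the WT P30 library, spanned 3.14-fold. From the lowest to the highest gene the range was wider in bulk. By transcript length it was 108.2-fold alone and 55.1-fold with copies, against 7.83-fold in the cells. Across these genes the rank correlation of the bulk level with the cell level was 0.0468 alone and 0.375 with copies (0.0262 and 0.317 with the length of all exons), given as a description over 77 genes that share the same libraries. Rps29 had 1328 CPM over all WT P30 cells and Rpl24 819, against 744 for Rps15.

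**Figure D1:**
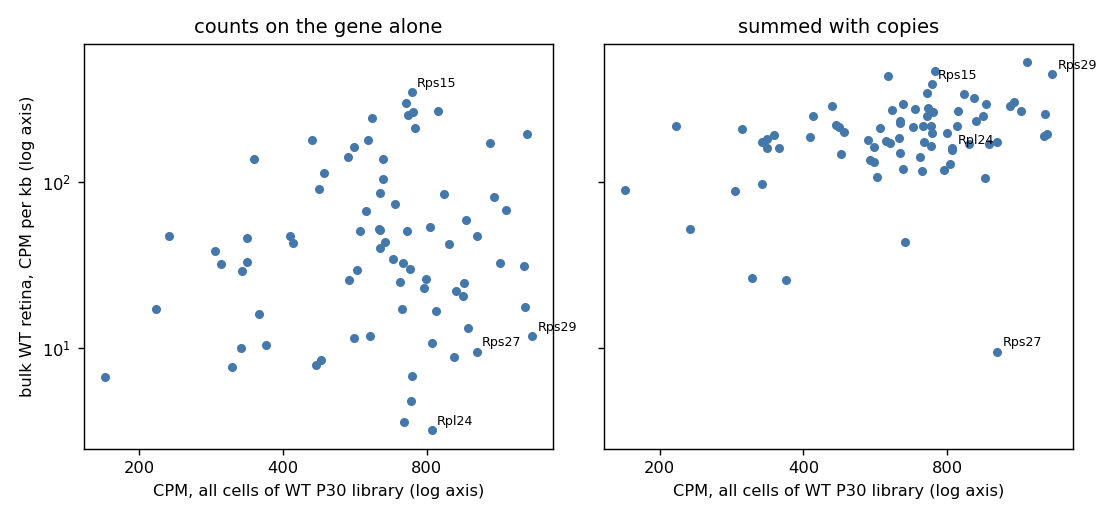
Level of each canonical ribosomal protein gene in WT retina at P30, bulk CPM per kb of median transcript length (y, log scale) against CPM over all cells of the WT P30 single-cell library (x, log scale), for the gene alone and for the gene summed with its pseudogene copies. Each point is 1 of 77 genes. The 10th to 90th percentile range of the bulk level narrowed from 21.2-fold to 3.02-fold on adding the copies, and the full range from 108.2-fold to 55.1-fold.

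In the KO retina at P30 few ribosomal protein genes were called, and their median stood at that of all genes. Of the 83 members tested (Rpl39l and Rpl3l were too low), 2 were higher and 5 lower at an adjusted p below 0.05 by the quasi-likelihood test of edgeR, Benjamini-Hochberg adjusted over 19381 genes. Of all genes tested, 16.2% were higher and 14.7% lower. The median log2 fold change was 0.002 over the members, 0.014 over the large and -0.002 over the small subunit, and 0.004 over all genes. No member reached a fold change of 1.5, against 7% of all genes higher and 3.04% lower with at least that fold. The 4 KO libraries all lay above the 4 WT libraries for 3 members (15.9% of all genes) and below them for 7 (15.5%).

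Rpl10, whose product joins the large subunit last and completes its tRNA-binding side, showed the largest called change. Its values were 12.05, 11.20, 11.38 and 12.03 CPM in WT and 14.66, 15.26, 13.77 and 13.47 CPM in KO retina. All KO libraries stood above all WT libraries. The log2 fold change was 0.30 ± 0.068 (SE, edgeR, Benjamini-Hochberg adjusted p = 0.0045).

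Rplp0, the base of the stalk that recruits elongation factors, was the other gene that rose. It read 96.51, 99.69, 90.56 and 97.43 CPM in WT and 105.0, 117.1, 110.5 and 109.4 CPM in KO retina, with no overlap (log2 fold change 0.21 ± 0.044, edgeR adjusted p = 0.0029). The other stalk genes did not pass the test: Rplp1 changed by -0.05 (edgeR adjusted p = 0.52) and Rplp2 by 0.00 (adjusted p = 1.0) on the log2 scale.

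Among the genes that fell in KO retina were Rpl10a, the protein of the L1 stalk at the tRNA exit side, Rpl7 of the large subunit, and Rps15a and Rps15 of the small subunit. Rpl10a read 110.0, 111.5, 117.1 and 115.0 CPM in WT and 93.81, 103.2, 96.60 and 96.43 CPM in KO retina, with all KO libraries below all WT libraries. Its log2 fold change was -0.21 ± 0.040 (edgeR adjusted p = 0.0012). Rpl7 fell by 0.19 on the log2 scale (edgeR adjusted p = 0.0096), Rps15a by 0.18 (adjusted p = 0.014) and Rps15 by 0.17 (adjusted p = 0.022).

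The counts moved with the scaling. TMM, which allows for a few abundant transcripts taking up the library, gave 2 higher and 5 lower, while division by library totals alone gave 22 higher and 0 lower with a median of 0.113 over the members and 0.114 over all genes. With totals alone Rpl10a, Rpl7, Rps15a and Rps15 lost their call as lower (adjusted p of 0.0667 for Rpl10a to 0.363 for Rps15, edgeR), while Rpl10 and Rplp0 kept theirs. Rps15 also lost its call without KO replicate 1. Under both, the members' median differed little from that of all genes. The share of all genes called with totals alone is not given here, so the 22 calls are not read as a result about the members. The reactive gliosis list and microglia markers were higher in KO retina, 0.198% to 0.218% of counts against 0.0389% to 0.0441% for reactive gliosis and 0.020% to 0.0238% against 0.00448% to 0.00484% for microglia and macrophages, and their part in these changes was not tested.

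**Figure D2:**
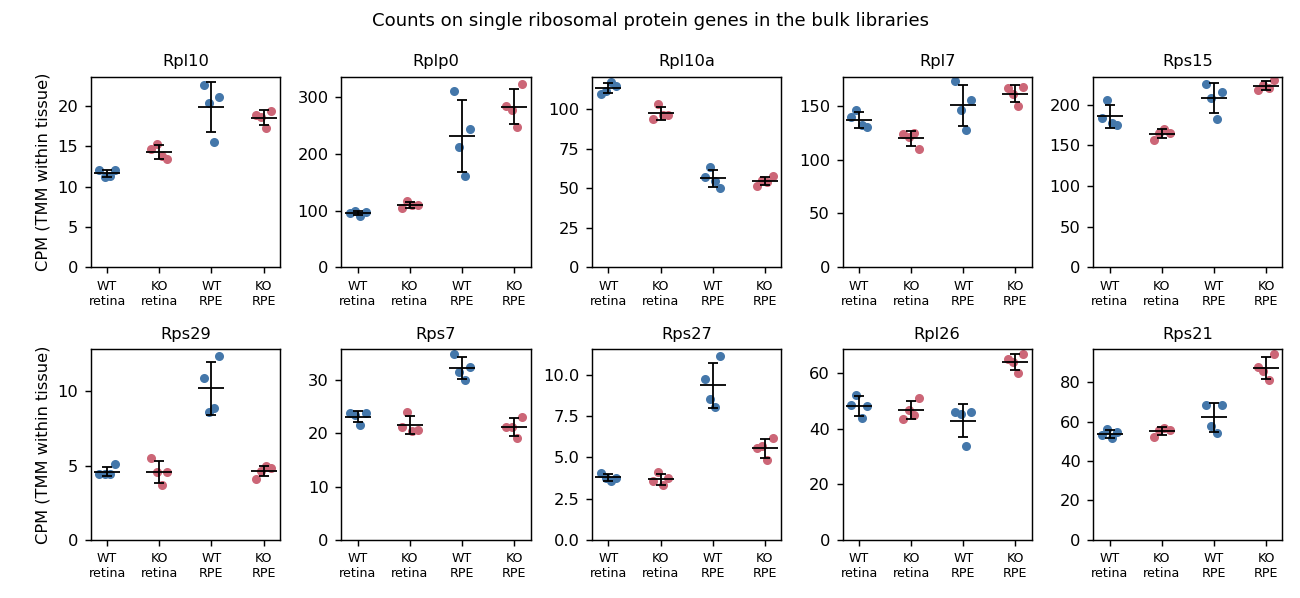
CPM of 10 ribosomal protein genes in the 16 bulk libraries at P30, by tissue and genotype. Points are libraries, and the bars give the mean ± SD of the 4 libraries of a group. Rpl10 and Rplp0 lay higher and Rpl10a lower in all 4 KO retina libraries, and Rps29, Rps7 and Rps27 lower in all 4 KO RPE libraries.

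In the KO RPE, single ribosomal protein genes fell by up to 1.27 on the log2 scale, while the median of the group stood near that of all genes. Of 84 members tested (all but Rpl39l), 2 were higher and 12 lower by the same edgeR test over 18989 genes, against 2.84% and 3.89% of all genes. With a fold change of at least 1.5 as well, 9 were lower (2.95% of all genes) and 0 higher (2.02% of all genes). The median log2 fold change was -0.004 over the members, -0.043 over the large and 0.003 over the small subunit, and -0.019 over all genes. All KO libraries lay below all WT libraries for 19 members (7.65% of all genes) and above for 7 (7.95%). Markers of other cells differed between these libraries as well. Reactive gliosis genes took 0.109% to 0.178% of counts in WT and 0.839% to 0.956% in KO RPE, microglia and macrophage genes 0.041% to 0.0625% and 0.0738% to 0.0825%, and Müller glia genes 1.68% to 2.26% and 2.40% to 2.49%, with no overlap. Of the 10 Müller glia genes, however, Clu alone was called (6980 CPM in WT and 12300 in KO RPE). Only 3 were positive, and the list's median log2 fold change was -0.145. Erythrocyte genes took 0.261% to 0.432% in WT and 0.0929% to 0.254% in KO RPE. Their part in the members' differences was not tested.

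Rps7, a small subunit protein that also binds MDM2, and Rps29, a zinc-binding protein of the small subunit, had the smallest adjusted p. Rps7 read 35.02, 31.52, 30.13 and 32.60 CPM in WT and 21.21, 21.21, 19.12 and 23.19 CPM in KO RPE (log2 fold change -0.62 ± 0.082, edgeR adjusted p = 0.0044). Rps29 read 10.92, 8.599, 8.879 and 12.38 CPM in WT and 4.124, 4.610, 4.933 and 4.798 CPM in KO RPE (log2 fold change -1.15 ± 0.16, edgeR adjusted p = 0.0047). Neither gene's groups overlapped. In the retina the same genes stood at -0.10 (adjusted p = 0.30) and 0.00 (adjusted p = 0.99).

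Rps25, Rpl38 and Rps27 followed. Rps25, which some viral and cellular internal ribosome entry sites need, changed by -0.53 ± 0.091, Rpl38, which is needed for normal axial patterning in the mouse, by -0.94 ± 0.17, and Rps27, a zinc finger protein, by -0.76 ± 0.15 (edgeR adjusted p = 0.014, 0.014 and 0.020). The others that fell were Rpl34, Rpl36al, Rpl28, Rpl24, Rpl36a, Rps27a and Rpl21, by 0.39 (Rpl21) to 1.27 (Rpl36al) on the log2 scale. Rps27a encodes ubiquitin fused to a small subunit protein, and was at 12.32, 11.10, 9.456 and 11.17 CPM in WT and 7.665, 7.736, 7.969 and 8.517 CPM in KO RPE.

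The genes that rose in KO RPE were Rpl26, a large subunit protein near the exit of the peptide tunnel, and Rps21. Rpl26 read 45.97, 45.29, 33.93 and 46.10 CPM in WT and 64.97, 64.07, 59.92 and 66.82 CPM in KO RPE (log2 fold change 0.57 ± 0.11, edgeR adjusted p = 0.018). Rps21 read 68.50, 57.82, 54.23 and 68.49 CPM in WT and 87.56, 85.64, 81.32 and 94.45 CPM in KO RPE (0.48 ± 0.098, adjusted p = 0.027). WT replicate 3 was the lowest for both, and the KO libraries all lay above the WT libraries.

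Of the RPE calls, 1 remained when the counts of each gene and its pseudogene copies were added up, an alternative chosen after the data were seen. It left 1 of the 84 members higher and 1 lower by edgeR's quasi-likelihood test (3.05% and 2.94% of all genes), none and 1 of them among those called for the gene alone. The median log2 fold change of the members was then 0.164, with 0.017 over all genes. Of the 12 members that were lower alone, 8 were positive when summed. Rps29 went from -1.15 to 0.15 (edgeR adjusted p = 0.40), Rps7 from -0.62 to 0.13 (adjusted p = 0.50) and Rpl24 from -0.89 to 0.07 (adjusted p = 0.61). Rps27a turned from -0.48 to 0.40 (adjusted p = 0.024) and Rpl26 went from 0.57 to 0.14 (adjusted p = 0.40). For the gene alone, the adjusted p of Rps29 lay between 1.71e-10 and 0.022 over the other settings, that of Rps7 between 6.27e-12 and 0.0211, and that of Rpl24 between 0.000106 and 0.0881.

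The members that were lower in KO RPE had a small part of their family's reads on the gene. It was 7.79% at the median, from 1.89% for Rpl24 to 99.66% for Rps27, against 22.7% for the median canonical gene in the RPE. The copies held 1.839 to 1.891 times as many counts as the members in WT RPE and 1.918 to 1.942 times in KO RPE, with no overlap, while in the retina the ratios overlapped between the genotypes. A copy that lies inside another gene can also hold reads of that gene, so the sum is not the level of the mRNA alone.

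Rps27 kept its call (-0.74 when summed, edgeR adjusted p = 0.023), but its nearest copy is a member itself and was not added. Rps27rt, a retrotransposed gene annotated as protein-coding, aligned to Rps27 with 100% identity over 341 bases and held 14.8 times as many bulk counts. In the cells the order was the other way, with 26.1 times as many unique molecular identifiers (UMIs) on Rps27 in rods. Rps27 and Rps27rt together read 125.9, 104.9, 99.95 and 144.7 CPM in WT and 117.4, 114, 114.7 and 118.2 CPM in KO RPE, so the summed groups overlapped. This pair was examined after its values were seen.

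**Figure D3:**
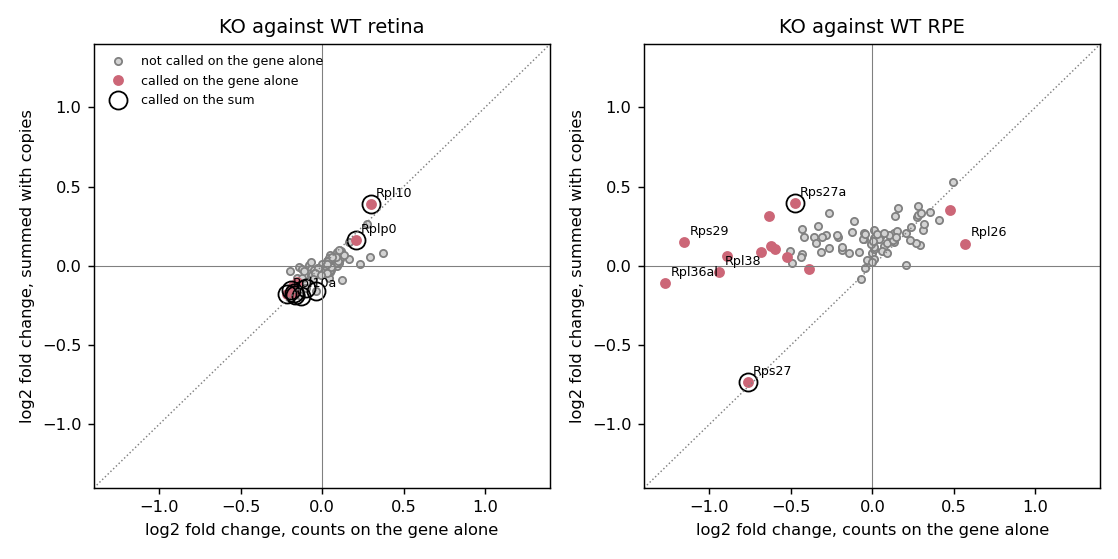
Log2 fold change of each ribosomal protein gene, KO against WT, for the gene alone (x) and for the gene summed with its pseudogene copies (y), in the retina and in the RPE. Each point is 1 gene. In the RPE, genes such as Rps29, which lay at -1.15 alone, lay near 0 when summed.

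In the retina, the 2 members that rose kept their calls in the sum. Rpl10 stood at 0.39 with its 17 copies (edgeR adjusted p = 8e-06), and Rplp0 at 0.16 (adjusted p = 0.015). Over all settings their adjusted p lay between 8e-06 and 0.0169 and between 8.58e-05 and 0.015. Of the 5 that fell, 3 kept their calls (Rpl10a, Rpl7 and Rps15), and in all 2 members were higher and 7 lower (16.5% and 14.9% of all genes).

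Same-numbered WT and KO libraries of the RPE deviated together, with correlations of 0.278 to 0.596, so the replicate number was tried as a block there. No label states a pairing. Replicates 2 and 3 held the most rod RNA in both genotypes, and its part in these correlations was not tested. With the replicate block, 2 members were higher and 7 lower in KO RPE for the gene alone, and 2 higher and 1 lower when summed with copies. The genes that lost their call with the block were Rpl36al (adjusted p = 0.0621 by edgeR), Rps27a (0.0747), Rpl21 (0.0738), Rpl28 (0.0548) and Rpl36a (0.0742). The lower count also moved with single libraries, from 4 without any 1 KO library, and 6 without WT replicate 4, to 15 without WT replicate 3, and the higher count from 0 without KO replicate 1, 2 or 4, and 1 without WT replicate 3, to 6 without WT replicate 1. Rps29, Rps7 and Rps25 stayed called whichever library was left out, and each of the other 11 called members lost its call without at least 1 library. With the rod marker level as a covariate the counts were 4 higher and 19 lower. The shares of all genes called under these settings are not given here.

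The genotype effect differed between the tissues for 15 of 84 members by the interaction term of edgeR's quasi-likelihood test over all 16 libraries, against 8.84% of 21068 genes. The smallest adjusted p were those of Rps25 (RPE minus retina -0.54 on the log2 scale, edgeR adjusted p = 0.0015), Rps29 (-1.13, adjusted p = 0.0019), Rpl28 (-0.73, adjusted p = 0.0027), Rpl26 (0.64, adjusted p = 0.0031) and Rps7 (-0.50, adjusted p = 0.0041). Summed with their copies, 3 members differed, or fewer in share than the 7.79% of 20611 genes: Rpl10a (0.365), Rps27 (-0.717) and Rpl9 (0.223). The count rose to 24 without WT RPE replicate 1.

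Between the tissues of WT mice most ribosomal protein genes were called. Of 84 members, 76 were higher and 2 lower in WT RPE than in WT retina by edgeR's quasi-likelihood test, against 41.4% and 40.4% of 20009 genes. The median log2 fold change was 0.792 over the members, 0.795 over the large and 0.773 over the small subunit, and 0.003 over all genes. With library totals alone it was 0.533, with -0.258 over all genes, and with copies added 0.753. The genes lower in the RPE were Rpl10a (-0.69 ± 0.071) and Rps12, a small subunit protein (-0.37 ± 0.11). When copies were added, Rpl10a was the only one lower (-0.21, edgeR adjusted p = 0.016). The tables of the tissues were counted separately, and the comparison takes them as counted alike. CPM were scaled within each tissue, while these fold changes came from a joint fit of the WT libraries.

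The paralogs Rpl3l, Rpl36al and Rps27l had the largest tissue differences of the members tested. Rpl3l read 0.1056 to 0.3064 CPM in WT retina and 6.723 to 12.27 CPM in WT RPE (log2 fold change 6.01 ± 0.35, edgeR adjusted p = 2e-06). Rps27l, a p53-induced paralog of Rps27, read 5.126 to 6.409 CPM in WT retina and 14.77 to 23.22 CPM in WT RPE (2.12 ± 0.17, adjusted p = 1e-05), and Rpl36al stood at 2.27 ± 0.28. Rpl7l1, an assembly factor, was 1.17 higher, under several canonical genes such as Rpl28 (1.67), and Rpl22l1, the paralog whose mRNA RPL22 binds, was 0.50 higher, under the members' median of 0.792. Between the genotypes none of the paralogs but Rpl36al in the RPE was called. Rpl36al was near the floor there, with means of 1.57 CPM in WT and 0.65 in KO RPE. Summed with copies it lost its call (edgeR adjusted p = 0.59). Rps27l was at 0.28 in the retina (edgeR adjusted p = 0.066) and 0.35 in the RPE (adjusted p = 0.28), Rpl22l1 at -0.17 and -0.49 (adjusted p = 0.24 and 0.052), and Rpl3l at 0.50 in the RPE (adjusted p = 0.51).

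Some members are also known for roles outside the ribosome. Rps7 and Rps27a, described above, were lower in KO RPE for the gene alone, but both were positive when summed with copies. The following were called in neither tissue for the gene alone. Rpl5 and Rpl11, which bind 5S rRNA and hold MDM2 when assembly stalls, were at -0.07 and 0.00 in KO retina (edgeR adjusted p = 0.54 and 0.99) and at -0.19 and -0.36 in KO RPE (adjusted p = 0.26 and 0.091). For Rpl11 all 4 KO RPE libraries (12.18 to 14.16 CPM) lay below all 4 WT RPE libraries (14.67 to 19.49 CPM). Rps6, the substrate of the S6 kinases, was at 0.03 and 0.01 (adjusted p = 0.73 and 0.98). Rpsa, also known as the laminin receptor, was at -0.01 and 0.07, and Rps19, mutated in Diamond-Blackfan anemia, at 0.02 and -0.22, none of them called.

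In rods the ribosomal protein genes were higher in KO mice at P19 and P25. Rods were named from 13 rod markers in clusters made without the members among the genes, and were 989 and 1145 cells (WT and KO) at P19, 785 and 1970 at P25, and 1342 and 1894 at P30, of 26764 cells in all, with a median of 1019 to 1204 UMIs per rod. The members' share of all rod UMIs was 3.24% in WT and 4.85% in KO at P19, 3.28% and 4.88% at P25, and 6.13% and 6.72% at P30. The exact binomial intervals (95%, counting error only) did not overlap at any age, for example 3.21% to 3.27% against 4.82% to 4.89% at P19. With 1 library per genotype and age there is no replicate at a single age, and no test was made there.

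Single rods showed it too. The median over rods was 2.72% in WT and 4.23% in KO at P19, 2.66% and 3.47% at P25 and 6.01% and 6.63% at P30. After each rod was thinned to 600 UMIs, which left out no rod, it was 2.83% and 4.17%, 2.67% and 3.5%, and 6.00% and 6.67%.

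**Figure D4:**
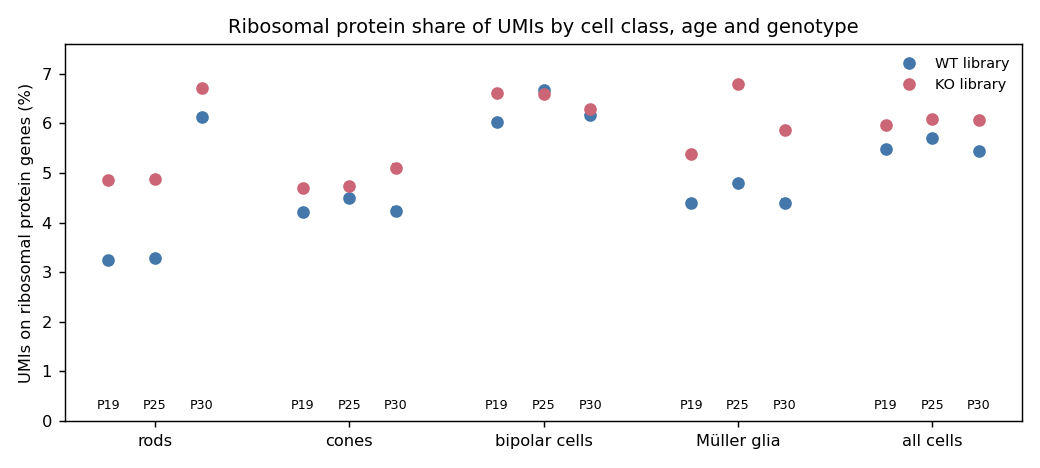
Share of UMIs on the ribosomal protein genes (percent of all UMIs of the class, y) in rods, cones, bipolar cells, Müller glia and all cells, by age (x) and genotype, 1 library per point. In rods it was 3.24% in WT and 4.85% in KO at P19, and 6.13% and 6.72% at P30.

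Nearly every member took part at P19 and P25. Among the 83 members that reached 20 UMIs in the WT and KO rods of an age together (Rpl39l had none and Rpl3l had 2 over all rods), the log2 ratio of KO to WT was above 0 for 82 at P19, 82 at P25 and 65 at P30. Its median was 0.587, 0.572 and 0.123, while that of all genes was 0.037, 0.010 and 0.005. Past a 1.2-fold difference 77 members were higher and 1 lower at P19, 79 and 0 at P25, and 18 and 1 at P30. Of all genes, 31.5%, 30.9% and 25.2% were that much higher at P19, P25 and P30, and 25.6%, 27.9% and 26% lower. At P30 the members' share of higher genes was therefore below that of all genes.

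Both subunits shared in it. At P19 the median log2 ratio was 0.535 over the large and 0.664 over the small subunit, at P25 0.549 and 0.594, and at P30 0.119 and 0.143. The ratio of large to small subunit UMIs in rods was 1.398 in WT and 1.33 in KO at P19, 1.324 and 1.307 at P25, and 1.42 and 1.361 at P30. It was lower in the KO library at each age. The same held in cones, Müller glia, amacrine cells and all cells, so it was not particular to rods. Over all cells the ratio was 1.432 in WT and 1.42 in KO at P19. In bipolar cells it was higher in KO at P19 (1.38 and 1.385) and at P25 (1.353 and 1.362).

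**Figure D5:**
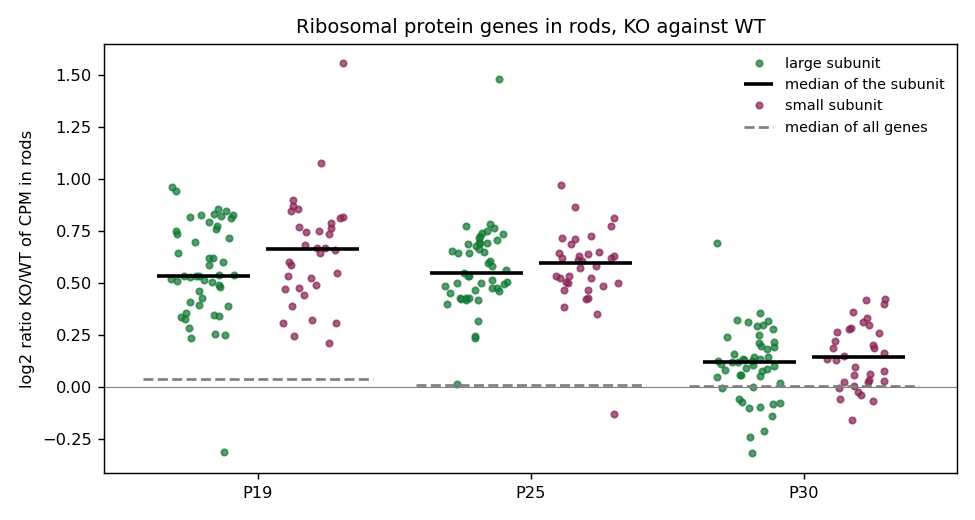
Log2 ratio of KO to WT in rods for each of 83 ribosomal protein genes (points), large and small subunit apart, at P19, P25 and P30, with the median of the subunit and the median of all genes. The members' medians stood at 0.587, 0.572 and 0.123 at the 3 ages and those of all genes at 0.037, 0.010 and 0.005.

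Rpl10 had the largest ratio over the ages. It read 142 and 273 CPM (WT and KO) at P19, 123 and 344 at P25, and 244 and 394 at P30, from 122 to 1018 UMIs per library. The log2 ratio was 0.94 (Poisson interval 0.69 to 1.2) at P19, 1.48 (1.21 to 1.77) at P25 and 0.69 (0.53 to 0.86) at P30. The interval stood above 0 at each age.

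Rps27a and Rps24 came next in the fit over the ages. Rps27a, among the 3 members with the most UMIs in rods, read 742 and 1567 CPM at P19, 695.5 and 1366 at P25 and 1145 and 1531 at P30. Rps24, whose product is also mutated in Diamond-Blackfan anemia, read 722 and 1346 CPM, 736 and 1341, and 839 and 1107. Rps29 was also among the 3 with the most UMIs (13543 in all), with log2 ratios of 0.79, 0.50 and 0.33.

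The extremes at P19 were Rps27rt (1.56, from 6 UMIs in WT and 20 in KO), Rps27a (1.08) and Rpl35, which sits at the exit of the peptide tunnel (0.96), and at the low end Rpl7l1 (-0.31, interval -0.82 to 0.19), Rps2 (0.21) and Rpl3, which shapes the peptidyl transferase center (0.24). Rpl35 turned to -0.32 (interval -0.49 to -0.15) at P30. The stalk genes Rplp0, Rplp1 and Rplp2 stood at 0.39, 0.74 and 0.85 at P19 and 0.19, -0.08 and 0.08 at P30. Of the 5S partners, Rpl5 stood at 0.33, 0.52 and 0.21 and Rpl11 at 0.60, 0.79 and 0.13 at the 3 ages.

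A fit over the ages, with the 3 ages as repeats and age as a block, called 24 of 83 members higher and 0 lower in KO rods (limma-trend on summed rods, Benjamini-Hochberg adjusted p below 0.05 over 11677 genes). Of all genes 4.21% were called higher and 2.15% lower. At an unadjusted p below 0.05, 70 members were higher and 0 lower, against 1380 and 965 of all 11677 genes. With edgeR 25 members were called higher and 0 lower, against 536 and 306 of all 11677 genes. Rpl10 (log2 fold change 1.04 ± 0.149, limma adjusted p = 0.000621), Rps27a (0.82 ± 0.161, adjusted p = 0.00593) and Rps24 (0.72 ± 0.150, adjusted p = 0.00944) had the smallest adjusted p. Rpl22 (0.61, adjusted p = 0.0123), Rps27 (0.63, adjusted p = 0.016) and the paralogs Rps27l (0.58, adjusted p = 0.0202) and Rpl36al (0.55, adjusted p = 0.0235) passed as well. Rpl22l1 (0.11, adjusted p = 0.758), Rpl7l1 (-0.09, adjusted p = 0.825) and Rps6 (0.32, adjusted p = 0.196) did not.

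The count rested on the set of ages. The fit had 2 residual degrees of freedom, and without the pair of libraries at P19, P25 or P30 it called 1, 1 and 79 members higher, where 9.22% of all genes were higher in the fit without P30. A rod cluster of deep cells, 73 cells of which 61 were of the KO P25 library, also weighed on P25: without it, an alternative added after the data were seen, the P25 median was 0.355 and the fit called 13 members higher. Of all 11612 genes, 450 were called higher in that fit. At P19 and P30 the medians were then 0.596 and 0.125.

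Different clusters held most of the rods of each group. At P19 and P25, 1036 and 1764 KO rods were in one cluster and 896 and 737 WT rods in another, and at P30, 1803 KO and 1303 WT rods were again in separate clusters. Other gene lists differed in rods too, in both directions. The reactive gliosis list read 70 and 418 CPM (WT and KO) at P19, 67 and 661 at P25 and 57 and 499 at P30. It holds Fgf2 and Edn2, which were among the top genes of the clusters with most KO rods, so it does not read other cells alone. Of the lists for other cells, erythrocyte genes read 31.8 and 688, 51.3 and 13.9, and 257 and 1981 CPM. Müller glia genes read 222 and 306 CPM at P19, 224 and 587 at P25 and 793 and 499 at P30, bipolar genes 671 and 794, 778 and 754, and 621 and 397, and amacrine genes 145 and 164, 89.6 and 79.1, and 170 and 58.5. Lens genes read 476 CPM in WT and 2.82 in KO rods at P19. Microglia and macrophage markers stood at 0.756 to 18.7 CPM in all rod groups. Their part in the members' difference was not tested. Of the barcodes, 49 occurred in more than 1 library.

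The ratio of share was highest in rods at P19 and P25, with Müller glia next, and highest in Müller glia at P30. The KO to WT ratio of the members' share was 1.497, 1.49 and 1.096 in rods at P19, P25 and P30. It was 1.11, 1.05 and 1.21 in cones, 1.10, 0.99 and 1.02 in bipolar cells and 1.23, 1.42 and 1.33 in Müller glia. In amacrine cells it was 1.14, 1.02 and 1.10, and over all cells 1.09, 1.07 and 1.12. At P30 the ratio in rods was below that over all cells. These are single libraries, and the difference between classes was not tested. Microglia and macrophages had shares of 14.5% to 18.5% at P19 and P25, but each library held 4 to 40 of those cells, under the minimum of 50 for a comparison.

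At P30 the values of rods and of bulk retina can be set side by side, with no test of their difference. The rod ratios were scaled by library totals and the bulk fold changes by TMM. In rods the members' median was 0.123, with 0.005 over all genes, and with TMM on rods it was 0.2, with 0.082 over all genes. Over all cells at P30, scaled by totals, it was 0.148, with -0.086 over all genes, and 77 of 83 members were above 0. In bulk the members' median was 0.002 with TMM and 0.113 with totals alone, and stood near that of all genes under both. With TMM in bulk, of 83 members, 38 were positive in both, 27 were positive in rods and negative in bulk retina, 6 were negative in rods and positive in bulk and 12 were negative in both. Rpl10 was positive in both (0.30 in bulk, 0.69 in rods), and so was Rplp0 (0.21 and 0.19). Rpl10a, which fell in bulk, stood at 0.11 in rods, Rps15a at 0.13 and Rps15 at 0.04, while Rpl7 was at -0.07. The rank correlation over the 83 genes was 0.41, given as a description, and the SD of the values was 0.12 in bulk and 0.167 in rods. Rods are one cell class of the bulk tissue, and reads of a member and its copies are counted apart in the bulk tables.

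Runs of pyrimidines were more frequent near the annotated starts of the canonical genes than near all starts, though many of these genes had none that was long. RefSeq promoter sequences (GRCm38.p6) matched 65 members, 57 of them canonical. CTTTC or CTTCC (gene strand) lay within 30 bases of the start in 33 of the 57, or 57.9%, against 19.1% of all 32851 promoters, and on the other strand in 33.3% against 20.4%. The motifs do not overlap each other's definition but can share bases in a longer run. The longest run of C and T in that window was 8 bases at the median, against 5 over all promoters, and reached 8 bases in 29 of the 57, or 50.9%, against 22.9%. The same window, 30 bases before and 30 after the start, is shown for the 3 canonical genes with the highest and the 3 genes with the lowest ratio in rods at P19 among those with a promoter sequence and at least 200 UMIs, to let the runs be compared, with the longest run within the window in capitals:
Rpl35 (chr2:39005102-39005161, minus strand): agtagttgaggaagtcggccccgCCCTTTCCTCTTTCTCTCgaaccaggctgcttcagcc
Rpl10 (chrX:74270786-74270845, plus strand): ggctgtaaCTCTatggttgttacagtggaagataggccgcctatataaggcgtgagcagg
Rps24 (chr14:24490648-24490707, plus strand): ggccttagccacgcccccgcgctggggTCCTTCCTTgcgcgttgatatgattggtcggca
Rpl7l1 (chr17:46782627-46782686, minus strand): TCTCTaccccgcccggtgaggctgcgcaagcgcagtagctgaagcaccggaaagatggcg
Rps2 (chr17:24720033-24720092, plus strand): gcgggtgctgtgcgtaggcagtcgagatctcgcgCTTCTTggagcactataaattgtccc
Rps6 (chr4:86857338-86857397, minus strand): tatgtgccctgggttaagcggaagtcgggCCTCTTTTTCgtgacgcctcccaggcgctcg
The marked runs were of 18, 4 and 9 bases in the first 3 genes and of 5, 6 and 10 in the others. The annotated start may lie off the start used in the retina, and nothing about translation was measured.

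Lists of genes that work with the ribosome were also counted in rods, where of all genes 31.5%, 30.9% and 25.2% were past 1.2-fold higher in KO at P19, P25 and P30, and 25.6%, 27.9% and 26% lower. The lists were chosen with earlier results of these data known. Of the translation factor genes 25 of 41, 25 of 41 and 9 of 42 were higher at P19, P25 and P30, and 2, 1 and 4 lower. Of 19 other TOP mRNAs 14, 18 and 2 were higher, and 0, 0 and 2 lower. For both lists the share of higher genes at P30 was below that of all genes. Of 78 mitochondrial ribosomal protein genes, whose products make up the separate ribosome of mitochondria, 35, 41 and 16 were higher and 6, 5 and 3 lower, again with a share under that of all genes at P30. The mitochondrial list's median at P19 was 0.251, under the 0.587 of the cytoplasmic members.

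Of the ribosome biogenesis and RNA polymerase I genes 16 of 53, 18 of 56 and 17 of 50 were higher and 8, 8 and 4 lower at the 3 ages. Of 6 genes listed by name as S6 kinases 1, 2 and 2 were higher and 3, 3 and 1 lower. Of the mTORC1 and TOP regulators 9 of 19, 10 of 20 and 7 of 18 were higher and 4, 1 and 1 lower, and of the p53 targets 5 of 7, 6 of 8 and 2 of 5 were higher and 1 lower at each age. Genes of the integrated stress response, which slows initiation through eIF2α, were higher in 19 of 20 at P19, 20 of 21 at P25 and 15 of 21 at P30, with 1, 0 and 2 lower. These lists, like the members, have no replicate at a single age.

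In bulk most of these lists had shares of called genes under those of all genes, which were 16.2% higher and 14.7% lower in KO retina and 2.84% and 3.89% in KO RPE. By edgeR's quasi-likelihood test 4 of 42 translation factors were higher and 5 lower in KO retina, and 0 and 1 in KO RPE. Eif1, the scanning factor, rose by 0.26 on the log2 scale and Eif4a1, the RNA helicase, fell by 0.15 in the retina (edgeR adjusted p = 0.0002 and 0.0099), and Eif4g3 fell by 0.42 in the RPE (adjusted p = 0.0094). With library totals alone Eif4a1 lost its call (adjusted p = 0.462). Of the other TOP mRNAs 3 of 19 were higher and 2 lower in the retina and none in the RPE, where Pabpc1 stood at 0.36 and Naca at -0.28 (adjusted p = 0.069 and 0.12, and 0.0387 and 0.0455 with the replicate block). Of the ribosome biogenesis and RNA polymerase I genes 4 of 56 were higher and 7 lower in the retina, among them Utp3 of the small subunit processome (-0.34, adjusted p = 0.00032) and Myc, a transcription factor of these genes (1.58, adjusted p = 0.0017), and 1 and 1 in the RPE, namely Mybbp1a (0.27, adjusted p = 0.015) and the polymerase subunit gene Polr1a (-0.51, adjusted p = 0.042), both of which were at 0.0512 with the replicate block. Each also lost its call without any 1 KO RPE library.

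The kinases and regulators upstream of translation are read against the same shares of all genes. Of the 10 genes listed by name as S6 kinases, 4 were higher in KO retina and none lower, and none was called in the RPE. Rps6ka1 (0.68, edgeR adjusted p = 5.3e-05) and Rps6ka2 (0.28, adjusted p = 0.00021) led in the retina. Which of the kinases so named act on Rps6 here was not tested. Of 20 mTORC1 and TOP regulators, 2 were higher and 2 lower in the retina, or 10% each, under the 16.2% and 14.7% of all genes, and 0 and 1 in the RPE. Eif4ebp1, the translation repressor that mTORC1 phosphorylates, rose by 1.60 (adjusted p = 1e-05) and Rptor, the mTORC1 scaffold, by 0.20 (adjusted p = 0.0011). In the RPE the mTOR inhibitor gene Deptor fell by 0.66 (adjusted p = 0.015), a call lost without KO RPE replicate 2, 3 or 4.

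In KO retina 14 of 23 integrated stress response genes were higher and 0 lower, with Atf3 at 2.42 and Nupr1 at 2.24 (edgeR adjusted p = 1.4e-07 and 2e-07), and in KO RPE 1 was higher (Atf3, 1.10, adjusted p = 0.019) and 1 lower (the amino acid transporter gene Slc7a5, -0.60, adjusted p = 0.038). Each of these calls in the RPE was lost without at least 1 library (Atf3 without WT replicate 3 or KO replicate 1 or 2, Slc7a5 without WT replicate 3 or any KO replicate). Of 11 p53 targets 5 were higher in KO retina, among them Cdkn1a (0.99, adjusted p = 0.00057) and the death receptor gene Tnfrsf10b (1.08, adjusted p = 0.0003), and none of 12 in KO RPE, where Cdkn1a stood at 0.85 (adjusted p = 0.14, and 0.0393 with the replicate block). Of 77 mitochondrial ribosomal protein genes tested, 3 were higher and 6 lower in KO retina, with Mrpl49 at -0.46 and Mrps27 at 0.54, and none was called in the RPE.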

How the data were processed

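Bulk RNA-Seq of retina and RPE (16 libraries) and single-cell RNA-Seq of retina (6 libraries) were analysed, grouped by the labels. For the bulk libraries the deposited values are raw read counts, 1 column per library. The sources used here do not name the aligner or counter of these tables, and the submitters' processing notes name mm10, Cell Ranger 2.1, Seurat 3.2.2, HOMER and edgeR 3.20.9 without saying which step each served. The cell matrix was deposited on a natural log scale (scaled to a fixed total per cell, then log-transformed). The values showed that this step had been applied 2 times, and UMI counts were recovered by inverting both, after which 99.99998% of the values were whole to within 0.01. Symbols, transcript lengths and exon lengths came from GENCODE M21.

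Bulk counts were tested with edgeR 4.0.16 (TMM, default filter on low counts, quasi-likelihood test, Benjamini-Hochberg adjustment over all genes tested), R 4.3.3. DESeq2 1.42.0 and limma 3.58.1 (voom), other scalings and filters, exon length, the replicate block, rod markers as a covariate and leaving out each replicate were alternatives. Log2 fold changes are ± SE, levels ± SD. Cells were clustered with scanpy 1.11.5 and leidenalg 0.10.2 (2000 variable genes without the members, 30 principal components, 15 neighbors, resolution 1.0), and clusters were named from markers. No doublet caller was run, and dropping the deepest 5% of rods was tried. Summed rod counts of each library were compared as log2 ratios of CPM (prior count 0.5), and over the ages with limma-trend (prior count 2, age as a block). The plan assumed raw counts, which the recovered UMI counts replaced. Same-numbered WT and KO retina libraries correlated by 0.043 to 0.187 in their deviations and were not treated as pairs, while in the RPE all 4 pairs were above 0.1. Pseudogene copies were found with BLAST 2.17.0.

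The members, the gene lists and the tests were chosen with earlier results of these data known. The genes named are the 5 higher and 5 lower members with the smallest adjusted p in each bulk tissue, the 3 highest and lowest per kb in WT retina, the 3 with the most UMIs and the 3 with the highest and lowest ratio at P19 in rods, the 5 with the smallest interaction p, the paralogs, the stalk, Rpsa, Rpl5, Rpl11, Rps6, Rps19 and Rps27a, and 2 genes of each list per tissue. The tests were also run on simulated data with known changes. A few genes and sequences that this rule would name are not reported here.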

Additional observations from a re-analysis of the deposited data

Results flagged for a closer look

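A sample far from the other 3 of its group was looked for in 140 groups of 4 bulk libraries with Dixon's ratio, and 7 were found, near the share that chance gives of about 1 in 20. In WT retina, Rps29 was highest at 5.082 CPM with the next library at 4.447. In KO retina, Rpl11 was lowest at 11.09 CPM (next 12.35), Rpsa lowest at 78.1 CPM (next 81.85), Rpl36al highest at 0.6764 CPM (next 0.4788) and Rpl39l highest at 0.06764 CPM, with the other libraries at 0. In WT RPE, Rpl26 was lowest at 33.93 CPM (next 45.29), and in KO RPE, Rpl39l was highest at 0.511 CPM (next 0.2344).

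The effect of the genotype differed between RPE and retina for 15 members by the interaction term of edgeR's quasi-likelihood test (Benjamini-Hochberg adjusted p of 0.0015 to 0.048). The log2 difference, RPE minus retina, was below 0 for Rpl36al (-1.618), Rpl38 (-1.21), Rps29 (-1.128), Rpl24 (-1.106), Rpl28 (-0.733), Rps27 (-0.703), Rps27a (-0.582), Rpl34 (-0.571), Rpl17 (-0.541), Rps25 (-0.538) and Rps7 (-0.5). It was above 0 for Rpl26 (0.636), Rps21 (0.467), Rpl36 (0.379) and Rpl4 (0.33). Of these 15, Rps27 was still called when the counts of pseudogene copies were added.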

How the results depend on the processing

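Over the other settings, 164 summary values stayed within a set margin of the main value and 39 moved beyond it, whatever their sign. With library totals alone the members higher in KO retina were 22, those lower 0 and the median 0.113. Leaving out 1 library gave 2 to 4 higher and 3 to 6 lower in the retina, 0 to 6 higher and 4 to 15 lower in the RPE, and 11 to 24 with an effect that differed between tissues (24 without WT RPE replicate 1). In the RPE, DESeq2 gave 8 higher and 19 lower, an exon length offset 5 higher, and rod markers as a covariate 4 higher and 19 lower. Shares of all genes called under these settings are not given here, so the counts show only how the calls moved. With the replicate block, which pairs same-numbered RPE libraries, 7 were lower, and 1 when summed with copies, with a median of 0.17. The block changed no call among the members in the retina.

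Summing counts with pseudogene copies, chosen after the data were seen, gave 1 higher and 1 lower in KO RPE with a median of 0.164, 1 lower in WT RPE than in WT retina, and 3 interactions. The sign turned in KO RPE for Rps7 (0.125), Rps29 (0.149), Rps25 (0.055), Rpl34 (0.108), Rps27a (0.395), Rpl24 (0.065), Rpl28 (0.316) and Rpl36a (0.09), and in the interaction for Rps25 (0.081), Rps29 (0.118), Rpl28 (0.387) and Rps7 (0.245).

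In rods the members called higher were 9 with clusters made with the members among the genes, 13 without the deep rod cluster (added after the data were seen), and 1, 1 and 79 without the libraries at P19, P25 and P30. The medians at P19, P25 and P30 were 0.545, 0.545 and 0.2 with TMM, 0.569, 0.446 and 0.15 with thinned rods, and 0.655, 0.516 and 0.148 without the deepest 5% of rods. The P25 median was 0.717 with the members in the clustering and 0.355 without the deep cluster, and the P30 median was 0.084 with totals that left out rod markers. The causes of these changes were not tested. Single libraries per age limit the rod values to counting error, and genes under 20 UMIs gave none.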
